A study of Macaca fascicularis with 44 samples.

Results

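Integrin and laminin subunits were followed across the cell classes of cultured cynomolgus monkey embryos (Macaca fascicularis). By gene name, 34 of the 21834 genes in the count table belong here, namely 23 integrin and 11 laminin chains. ITGB3, ITGAL and LAMB3 were not analysed here. Wild type embryos were made by sperm injection and grown in vitro past the blastocyst stage, and RNA was read in 3682 single cells of 9 embryos, E16-1 to E25, in 44 libraries. E16 holds 2 embryos and each later day 1 embryo, so a single day and its embryo cannot be told apart. Per the labels' protocols, extraembryonic tissue was removed at dissection, so the trophoblast and mesenchyme cells are those that stayed with the inner bodies.

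Each cell carried a class name from the authors' deposited annotation. The comparisons use extravillous trophoblast (EVT, the invasive trophoblast), syncytiotrophoblast (STB, the fused, hormone-producing trophoblast), cytotrophoblast (CTB, the trophoblast stem and progenitor layer), Extraembryonic Mesoderm and extraembryonic mesenchyme (EXMC). Counts were summed per embryo and class, and a sum of at least 10 cells was 1 replicate. This gave 6 sums for EVT, 4 for STB, 8 for CTB, 6 for Extraembryonic Mesoderm and 8 for EXMC. Mesoderm and the epiblast (EPI) had 3 sums each. Endoderm, Non-neural ectoderm and PS and derivative, the primitive streak class, had 2 sums each, and Neural ectoderm 1. Levels are CPM, a subunit's count scaled to the total of its sum, without a correction for gene length, so a level is compared between classes and never between genes.

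Integrins are receptors of an alpha and a beta chain that tie a cell to the matrix around it. Laminins are secreted trimers of an alpha, a beta and a gamma chain, and they form the main sheet of a basement membrane. In the human placenta, cytotrophoblast at rest on its basement membrane is known for the laminin receptor of ITGA6 and ITGB4, and invading EVT for receptors built from ITGA5 or ITGA1 with ITGB1, which bind fibronectin and collagen.

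Depth and labels set the following limits. The 45 sums held from 1298593 to 50676255 counts, and the median cell had 110457.5 counts. No cell shared its whole count profile with another cell. CGA, a hormone subunit of STB, averaged 33025.9 CPM in STB, and HTRA4 and NOTUM, markers of EVT, averaged 1198 and 1339 CPM in EVT. Of the other STB markers, GCM1 and SDC1 averaged 384 and 152 CPM in STB. They averaged 224 and 26.1 CPM in EVT, and 75.1 and 5.13 CPM in CTB. CYP19A1, also an STB marker, averaged 1.10 CPM in STB, 1.06 CPM in EVT and 0 CPM in CTB. ASCL2, another EVT marker, averaged 1.82 CPM in EVT and 2.19 CPM in CTB. The 4 CTB markers summed to a median of 4531 CPM in CTB and 4535 CPM in STB. Of these, PAGE4 averaged 4164 CPM in CTB and 4945 CPM in STB, and TP63 11.2 and 1.87 CPM. The 5 markers of Extraembryonic Mesoderm summed to a median of 1547 CPM there and 1746 CPM in EXMC. Of these, VIM averaged 1334 and 1482 CPM, and HAND1 264 and 62.4 CPM. The 6 primitive streak markers summed to 1143 and 1375 CPM in PS and derivative. The 5 neural markers summed to 137 CPM in Neural ectoderm, with 3 of them above 0, against 388 and 804 CPM in Endoderm. The 5 mesoderm markers summed to at most 19.9 CPM in Mesoderm, against 208 and 469 CPM in PS and derivative. For Neural ectoderm and Mesoderm the marker sum was thus higher in another class, largely through a single gene. MESP1, also a streak marker, averaged 331 CPM in PS and derivative, and CDH2 averaged 596 CPM in Endoderm. PAX6 and SOX2 averaged 8.06 and 24.6 CPM in Neural ectoderm and 0 CPM in Endoderm, and LHX2 0 and 0.371 CPM. Sums of 9 mesenchyme markers (collagens, POSTN, VIM, LUM, DCN and TCF21) were 1589 to 18733 CPM in EVT and 4064 to 9484 CPM in STB, against 489 to 2333 CPM in CTB and 18225 to 50336 CPM in EXMC. All 9 were above 0 in each of these classes, and their part in the differences below was not tested except where stated.

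**Figure D1:**
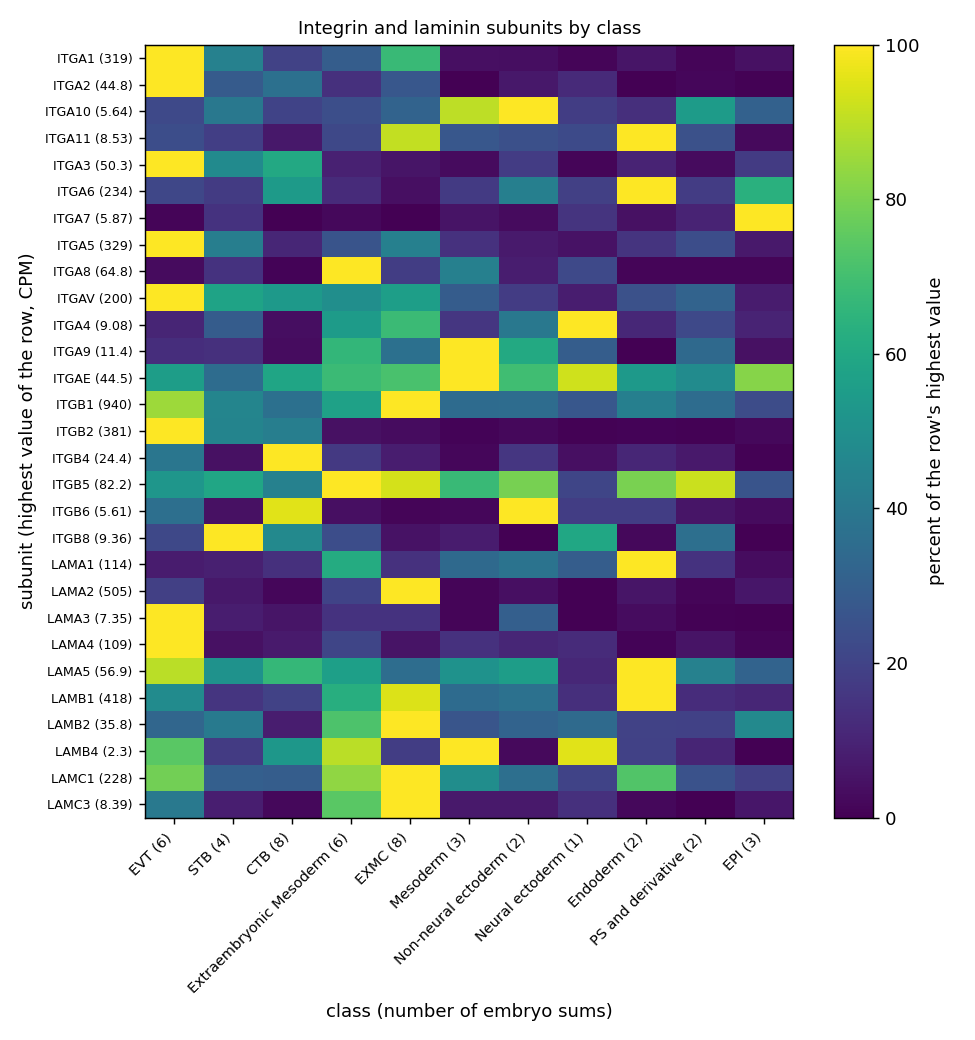
Mean level of each subunit by class, as a percent of that subunit's highest class (colour; the highest value in CPM stands beside each name, and the number of embryo sums beside each class). Subunits under 1 CPM in every class are left out; the matrix-binding integrins ITGA1, ITGA5 and ITGAV peak in EVT, LAMA2 and ITGB1 in EXMC, and ITGA6, LAMA1 and LAMB1 in Endoderm.

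EVT had the highest class mean for 9 of the 34 subunits, EXMC for 6, Endoderm for 5, and the other classes for 3 or fewer, with none in PS and derivative. ITGB1, the beta chain shared by most matrix receptors, was read in every sum and was highest in EXMC at 939.9 ± 294 CPM (SD, n = 8) and in EVT at 803 ± 234 CPM (SD, n = 6). At the other end, ITGAM and ITGAX, the alpha chains that pair with ITGB2 on white blood cells, and ITGB7, a beta chain of lymphocytes, were under 0.1 CPM in EVT, STB, CTB, Extraembryonic Mesoderm and EXMC. These 3 did not pass the filter on low counts, and 31 subunits were tested.

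EVT against CTB asks which adhesion genes accompany the invasive trophoblast. In EVT 13 subunits rose and 1 fell, by the edgeR quasi-likelihood test at an adjusted p under 0.05, so 14 of the 31 tested. Of all 16333 genes tested, 14.5% were called in this comparison, 9.25% higher and 5.21% lower in EVT. The median log2 fold change was 1.32 over the subunits and 0.08 over all genes. Class names may rest on the counts tested here, so a p-value describes how steady a difference was over embryos and does not test the classes themselves.

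Among the alpha chains, ITGA5, ITGA1 and ITGAV rose and ITGA6 fell. ITGA5, the alpha chain of the fibronectin receptor, ranged from 221 CPM over a median of 292 CPM to 645 CPM in EVT, and from 12.9 CPM over a median of 31.7 CPM to 74.2 CPM in CTB. The lowest EVT embryo stood above the highest CTB embryo, and the log2 fold change was 3.29 ± 0.36 (SE; edgeR adjusted p = 1.86e-08). ITGA1, an alpha chain for collagen and laminin, ranged from 238 CPM over a median of 287 CPM to 528 CPM in EVT, and from 12.8 CPM over a median of 40.6 CPM to 155 CPM in CTB. Again the groups did not overlap (log2 fold change 2.69 ± 0.47, edgeR adjusted p = 6.29e-05). ITGAV, which with several beta chains binds vitronectin and other ligands, averaged 199.8 ± 43.2 CPM in EVT (SD, n = 6) and 108 ± 29.4 CPM in CTB (SD, n = 8). It was higher in EVT in 6 of 6 embryos that had both sums, although the ranges touched (log2 fold change 0.97 ± 0.28, edgeR adjusted p = 0.0125).

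ITGA6, the laminin receptor chain of cytotrophoblast, ranged from 36.6 CPM over a median of 48.9 CPM to 68.2 CPM in EVT, and from 73.0 CPM over a median of 129 CPM to 194 CPM in CTB. No EVT embryo reached the lowest CTB embryo, and the log2 fold change was -1.32 ± 0.32 (edgeR adjusted p = 0.00315). Its partner ITGB4, which anchors hemidesmosomes to keratin filaments, averaged 9.59 ± 7.95 CPM in EVT and 24.4 ± 9.07 CPM in CTB. It was lower in EVT in 6 of 6 embryos, but the ranges overlapped and the log2 fold change of -1.42 ± 0.53 did not pass the test (edgeR adjusted p = 0.0647). ITGA3, another laminin receptor chain, had a log2 fold change of 0.80 ± 0.43, and ITGA2, a collagen receptor chain, one of 1.40 ± 0.62, and neither passed (edgeR adjusted p = 0.224 and 0.133). The remaining 8 alpha chains tested did not pass either, and 7 of them averaged at most 2.01 CPM in EVT and 1.14 CPM in CTB.

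Among the beta chains, ITGB1 and ITGB2 rose. ITGB1 ranged from 507 CPM over a median of 779.8 CPM to 1082 CPM in EVT, and from 275 CPM over a median of 339 CPM to 437 CPM in CTB, with no overlap (log2 fold change 1.23 ± 0.17, edgeR adjusted p = 2.43e-06). ITGB2, the beta chain known from white blood cells, averaged 381 ± 192 CPM in EVT and 162 ± 130.4 CPM in CTB, and was higher in EVT in 6 of 6 embryos (log2 fold change 1.04 ± 0.36, edgeR adjusted p = 0.0402). That call was lost when any one of the embryos E16-2, E18, E20, E23, E24 or E25 was left out, with adjusted p between 0.0591 and 0.0805. PTPRC and SPI1, which define blood cells, averaged 0.0992 and 0.222 CPM in EVT, and 0.195 and 0.0179 CPM in CTB. CD34, the third blood marker with counts, averaged 11.01 CPM in EVT and 0.714 CPM in CTB. Of 2 blood markers tested 1 was called higher in EVT, and of 2 platelet and megakaryocyte markers tested 2 were. Their part in the ITGB2 difference was not tested. The beta chains that pair with ITGAV did not pass, with log2 fold changes of 0.32 ± 0.31 for ITGB5, -1.92 ± 1.06 for ITGB6 and -1.62 ± 1.03 for ITGB8 (edgeR adjusted p = 0.546, 0.243 and 0.326).

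**Figure D2:**
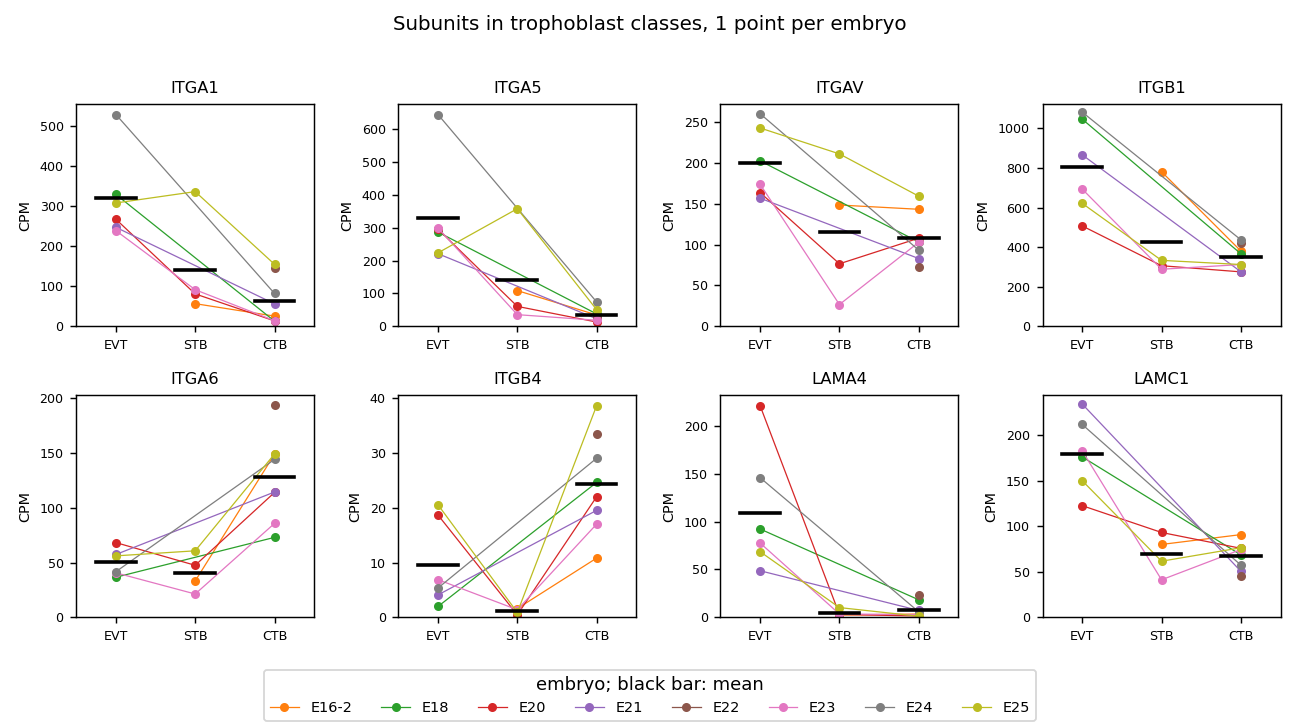
Level (CPM) of 8 subunits in EVT, STB and CTB, with 1 point per embryo; thin lines join sums of the same embryo, EVT to CTB directly where there is no STB sum, and black bars are class means. In all 6 embryos with both sums, ITGA1, ITGA5, ITGAV, ITGB1, LAMA4 and LAMC1 were higher in EVT, and ITGA6 and ITGB4 lower.

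Laminin chains rose in EVT and none passed the test in the other direction. LAMA4, the alpha chain best known from vessel walls, ranged from 48.6 CPM over a median of 84.9 CPM to 221 CPM in EVT, and from 1.17 CPM over a median of 4.61 CPM to 23.8 CPM in CTB. The ranges did not overlap (log2 fold change 4.32 ± 0.58, edgeR adjusted p = 1.09e-06). The 5 endothelium markers, all above 0 in both classes, summed to 500.2 to 1672 CPM in EVT and 93.5 to 273 CPM in CTB. Most of the EVT sum was PECAM1, which averaged 833 CPM in EVT and 50.2 CPM in CTB. CDH5 averaged 83.0 CPM in EVT and 83.8 CPM in CTB. Of the 5 markers 3 were called higher and 0 lower in EVT. Their part in the LAMA4 difference was not tested. LAMB1 and LAMC1, the beta and gamma chains of the most widespread trimers, averaged 202 ± 84.0 and 179 ± 40.4 CPM in EVT, and 82.8 ± 20.99 and 67.4 ± 15.1 CPM in CTB. Neither overlapped between the classes (log2 fold change 1.32 ± 0.28 and 1.43 ± 0.26, edgeR adjusted p = 0.000788 and 0.000108). LAMA5, their common alpha partner, was higher in EVT in 6 of 6 embryos, with 51.0 ± 11.6 CPM in EVT and 37.9 ± 7.12 CPM in CTB, and did not pass (log2 fold change 0.55 ± 0.24, edgeR adjusted p = 0.129).

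LAMA3 is the alpha chain of the trimer that ITGA6 with ITGB4 binds in epithelia. It averaged 7.35 ± 9.58 CPM in EVT and 0.414 ± 0.589 CPM in CTB (log2 fold change 3.85 ± 1.18, edgeR adjusted p = 0.0213). Embryo E20 gave LAMA3 its highest EVT value, 25.6 CPM, and the lowest was 0.361 CPM in E25. Leaving out E18 or E20 ended the LAMA3 call (adjusted p = 0.114 and 0.0813).

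LAMA2, LAMB2 and LAMC3 rose as well. Their means were higher in EXMC than in EVT, as were those of ITGB1, LAMB1 and LAMC1. LAMA2, an alpha chain of muscle and mesenchyme, averaged 95.04 ± 95.3 CPM in EVT and 8.48 ± 5.10 CPM in CTB (log2 fold change 3.02 ± 0.54, edgeR adjusted p = 8.85e-05). LAMB2 averaged 11.8 ± 9.38 CPM in EVT and 2.82 ± 2.41 CPM in CTB (log2 fold change 1.75 ± 0.44, edgeR adjusted p = 0.00465). LAMC3 stayed low, with means of 3.38 CPM in EVT and 0.191 CPM in CTB, and was higher in EVT in 4 of 6 embryos (log2 fold change 3.46 ± 0.99, edgeR adjusted p = 0.0125). Its call was lost without E21 or E25 (adjusted p = 0.0501 and 0.0551). Fine cluster 18 of EVT, with 86 cells, had a mesenchyme marker sum of 23842.8 CPM, 218.9 CPM of LAMA2 and 29.5 CPM of LAMB2. Without cluster 18 the log2 fold changes fell to 1.05 ± 0.53 for LAMA2 and 0.73 ± 0.52 for LAMB2, and neither passed (edgeR adjusted p = 0.195 and 0.401).

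Fine cluster 7 of EVT, with 192 cells, had a median of 10215.5 counts per cell, against 74588 to 336667 in the other EVT clusters, and a mesenchyme marker sum of 7210 CPM. With clusters 7 and 18 both left out, 4 EVT sums remained and 14 subunits were called, 11 of them also called with all EVT cells, against 13.4% of all genes in that fit. The log2 fold changes were then 4.03 ± 0.41 for ITGA5, 3.38 ± 0.51 for ITGA1, 1.51 ± 0.21 for ITGB1, 5.20 ± 0.63 for LAMA4, 1.16 ± 0.31 for LAMB1, 1.44 ± 0.29 for LAMC1 and -1.20 ± 0.38 for ITGA6. LAMA2 was at 0.35 ± 0.56, LAMB2 at 0.10 ± 0.62 and LAMC3 at -0.10 ± 1.06 in that fit. None of them was called, with an edgeR adjusted p of 0.989 for LAMC3. ITGA2, ITGA3 and LAMA5 were called in that fit and not with all EVT cells.

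**Figure D3:**
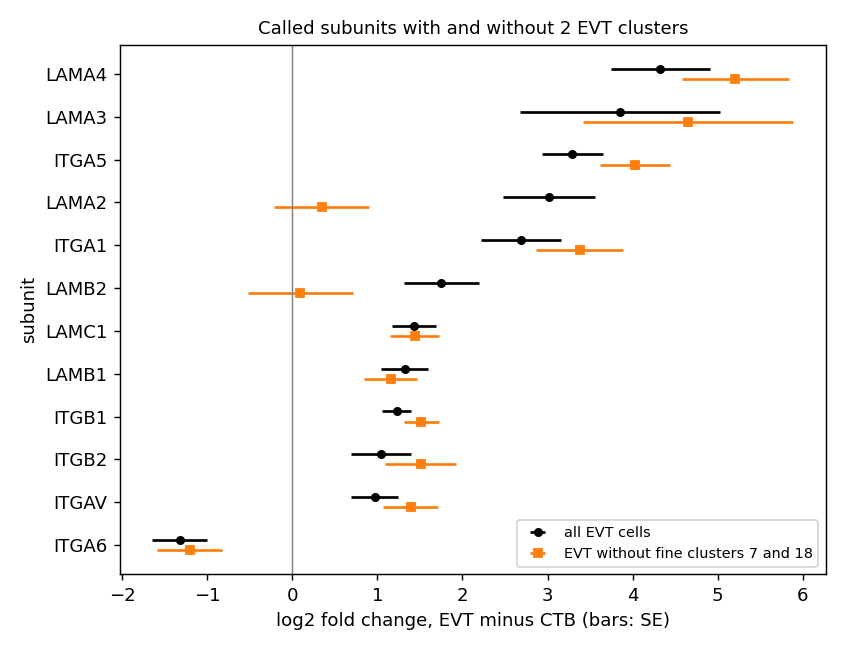
Log2 fold change of called subunits in EVT minus CTB (bars: SE), with all EVT cells (black, 6 EVT sums) and without fine clusters 7 and 18 (orange, 4 EVT sums). LAMA2 and LAMB2 drop to 0.35 and 0.10, and the others shown stay on the same side of 0. LAMC3 is not shown.

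Genes that work with these receptors moved in the same comparison. Of 26 basement membrane partners and laminin receptors, 15 rose and none fell in EVT. NID1 and NID2, the nidogens that link laminin to collagen IV, had log2 fold changes of 3.45 ± 0.35 and 3.25 ± 0.42, SDC1, a syndecan, one of 2.83 ± 0.48, and COL4A1, a collagen IV chain, one of 2.76 ± 0.35. Of 23 other integrin ligands, 11 rose and none fell, led by ICAM1, a ligand of ITGB2 receptors, at 3.95 ± 0.58. CCN2, TGFB2 and THBS1 followed at 3.52 ± 0.56, 3.51 ± 0.46 and 3.43 ± 0.61. Of 25 adhesion adaptors and kinases, 11 rose and none fell, with TGFB1I1 at 3.11 ± 0.55, PTK2B at 3.03 ± 0.77, FERMT2 at 1.48 ± 0.27 and TNS3 at 1.45 ± 0.29. The median log2 fold changes of the 3 lists were 1.48, 1.91 and 0.83, against 0.08 over all genes. Mesenchyme markers rose with them, 9 of 9 in EVT, and their part in these lists was not tested. Among the EVT fine clusters, CCN2, THBS1 and TGFB1I1 were highest in cluster 18, at 1106, 222 and 70.3 CPM. TGFB1I1 was 3.29, 4.01 and 9.21 CPM in clusters 13, 19 and 23. It was 3.83, 0.916 and 4.87 CPM in CTB clusters 0, 12 and 14. In the same order, THBS1 was 12.2, 7.29 and 27.2 CPM in EVT and 10.95, 1.85 and 2.72 CPM in CTB. CCN2 was 62.7, 58.3 and 388 CPM in EVT and 48.1, 27.9 and 11.5 CPM in CTB. Among EVT clusters the other named genes were highest in 13 or 23. NID2 was 27.2, 21.2 and 465 CPM in EVT clusters 13, 19 and 23, and 189 and 340 CPM in clusters 7 and 18. In CTB clusters 0, 12 and 14 it was 22.4, 11.9 and 17.1 CPM. In the same order, SDC1 was 7.36, 9.53 and 92.1 CPM, then 48.3 and 14.9 CPM, and 3.24, 2.54 and 6.05 CPM in CTB.

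STB against CTB asks which subunits differ in the fused trophoblast. Of the 31 subunits, 5 rose and 4 fell in STB, and 17.3% of all genes were called, 8.33% higher and 8.94% lower in STB. The laminin receptor of cytotrophoblast was lower on both chains. ITGB4 was 1.60, 0.460, 1.39 and 0.886 CPM in the STB sums of E16-2, E20, E23 and E25, and ranged from 10.8 CPM over a median of 23.3 CPM to 38.7 CPM in CTB. Every STB sum was under every CTB sum (log2 fold change -4.39 ± 0.78, edgeR adjusted p = 7.86e-05). ITGA6 was 33.2, 47.5, 21.3 and 60.7 CPM in the same STB sums, below the 73.0 CPM of the lowest CTB sum (log2 fold change -1.84 ± 0.39, edgeR adjusted p = 0.000742).

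ITGB6 and ITGAE fell less steadily. ITGB6, a partner of ITGAV in epithelia, averaged 0.261 ± 0.195 CPM in STB and 5.37 ± 3.84 CPM in CTB without overlap (log2 fold change -3.99 ± 1.40, edgeR adjusted p = 0.0471). Its call was lost without E16-1, E16-2, E18, E20, E22, E23 or E25, with adjusted p up to 0.147. ITGAE, which binds E-cadherin together with ITGB7, averaged 15.8 ± 15.2 CPM in STB and 26.1 ± 23.2 CPM in CTB (log2 fold change -1.38 ± 0.47, edgeR adjusted p = 0.0391). Its call was lost without any embryo but E16-2 and E22, with adjusted p up to 0.195, and it was lower in STB in 3 of 4 embryos. With DESeq2 size factors in place of TMM factors ITGAE and ITGB6 were no longer called, so 5 rose and 2 fell. That scaling moved the median log2 fold change of all genes to 0.02, against -0.16 in the TMM fit.

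ITGA5 rose in STB too. It was 109, 60.6, 35.4 and 358 CPM in the STB sums of E16-2, E20, E23 and E25, and its CTB median was 31.7 CPM. STB was higher in 4 of 4 embryos, although E20 and E23 lay inside the CTB range (log2 fold change 1.75 ± 0.40, edgeR adjusted p = 0.00188). With at least 20 cells per sum it was 0.74 ± 0.44 and no longer called (edgeR adjusted p = 0.296). ITGA8, a receptor chain for nephronectin, was 4.00, 22.8, 11.6 and 0 CPM in the same STB sums and averaged 0.548 CPM in CTB (log2 fold change 4.08 ± 0.89, edgeR adjusted p = 0.00103). ITGA7, a laminin receptor chain of muscle, was the fifth chain called higher. It had no count in CTB, which allows up to 0.0259 CPM over the 8 sums, and was read in the STB sums of E16-2 and E20 at 3.20 and 0.276 CPM. The ITGA7 call was lost without E16-2, E18 or E20, with adjusted p up to 0.149.

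LAMA2 and LAMB2 were the laminin chains that rose in STB. LAMA2 was 46.0, 16.7, 50.2 and 17.3 CPM in STB, above the CTB maximum of 14.2 CPM in every sum (log2 fold change 1.99 ± 0.63, edgeR adjusted p = 0.0245). That call was lost without E16-2 or E23 (adjusted p = 0.0978 and 0.101). LAMB2 was 4.40, 7.73, 7.40 and 39.4 CPM in STB, and averaged 2.82 ± 2.41 CPM in CTB (log2 fold change 2.40 ± 0.51, edgeR adjusted p = 0.000734). The 9 mesenchyme markers were higher in STB as well, and their part in the 2 laminin chains was not tested. ITGB1, LAMB1 and LAMC1 had log2 fold changes of 0.21 ± 0.20, -0.40 ± 0.34 and -0.12 ± 0.30 and did not pass (edgeR adjusted p = 0.563, 0.485 and 0.861). ITGA1, higher in STB in 4 of 4 embryos, did not pass at 1.22 ± 0.52 (edgeR adjusted p = 0.109). ITGA2, ITGA3, ITGAV, ITGB5, ITGB8, LAMA3, LAMA4 and LAMA5 lay between -0.56 for LAMA5 and 0.69 for ITGB8, none of them called. Of the 26 basement membrane partners 5 rose and none fell in STB, with SDC1, a syndecan that marks the syncytium, at 5.68 ± 0.56.

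Adaptors were called in STB at shares near those of all genes. FERMT1, the epithelial kindlin that activates integrins, fell by 3.24 ± 0.60 on the log2 scale, and ACTN1, an actinin, by 2.20 ± 0.49. TGFB1I1, TNS3 and ACTN4 rose, by 1.77 ± 0.63, 1.23 ± 0.33 and 1.17 ± 0.20. In all, 3 of 25 adaptors and kinases rose and 2 fell, and of 23 other ligands 8 rose and 1, CDH1, fell (log2 fold change -3.89, edgeR adjusted p = 0.0162).

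EVT against STB sets the differentiated trophoblasts side by side, and it shares its sums with the comparisons above. Only 3 embryos (E20, E23 and E25) had both sums. In EVT 10 subunits rose and 1 fell relative to STB, and 11.1% of all genes were called, 6.39% higher and 4.66% lower in EVT. The median log2 fold change was 1.31 over the subunits and 0.26 over all genes, or 0.14 over all genes with DESeq2 size factors. LAMA4 was 48.6 to 221 CPM in EVT, and 2.40, 3.04, 3.47 and 10.2 CPM in STB, with no overlap (log2 fold change 4.38 ± 0.77, edgeR adjusted p = 7.69e-05). LAMB1 and LAMC1 also did not overlap, with log2 fold changes of 1.72 ± 0.38 and 1.55 ± 0.34 (edgeR adjusted p = 0.00122 and 0.00117). ITGB1 had a log2 fold change of 1.02 ± 0.23 (edgeR adjusted p = 0.00127), and the STB sum of E16-2, at 781 CPM, lay inside the EVT range.

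ITGB4 separated the classes although it was low in both. It ran from 1.98 to 20.6 CPM in EVT and from 0.460 to 1.60 CPM in STB (log2 fold change 2.97 ± 0.77, edgeR adjusted p = 0.00557), and its call was lost without E20 or E25 (adjusted p = 0.0997 and 0.0598). The calls of ITGA5, ITGAV, ITGAE, ITGB2 and LAMA5, with log2 fold changes of 1.54, 1.31, 1.58, 1.53 and 1.11, were each lost without at least 1 embryo. ITGA5 was lost without E16-2, E20 or E23, ITGAV without E23, ITGAE without E18, E20 or E23, ITGB2 without E23 or E25, and LAMA5 without E18, E23 or E25. The count of called subunits was 5 without E23 and 7 without E20, and the share of all genes called was then 6.62% and 7.2%. ITGA8 was the subunit that was lower in EVT (log2 fold change -2.43 ± 0.84, edgeR adjusted p = 0.0438), at means of 1.98 CPM in EVT and 9.59 CPM in STB. Its call was lost without E16-2, E18, E20, E21, E23 or E24, with adjusted p up to 0.216. LAMA3 was higher in EVT in 3 of 3 embryos and did not pass, at 4.33 ± 1.57 (edgeR adjusted p = 0.0566), and neither did ITGA1 at 1.47 ± 0.58 (edgeR adjusted p = 0.08). Of the adaptors and kinases 9 of 25 rose and 1, ACTN4, fell, with TLN1, the talin that links integrins to actin, at 1.94 ± 0.33.

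Within the trophoblast classes the authors' clusters divided the subunits further. These clusters were built from the same counts, so their levels are given as pooled CPM with no test, and 95% Poisson intervals cover counting error only. Cluster 23 of EVT (61 cells) had the most EVT markers, 10452 CPM, and the highest pooled level of several chains. It held 603 CPM of ITGA1, 515.8 CPM of ITGA5, 1305 CPM of ITGB1, 213.6 CPM of ITGA2, 265 CPM of LAMB1, 229.9 CPM of LAMC1 and 74.9 CPM of LAMA3. The 8 other trophoblast clusters held at most 7.28 CPM of LAMA3 and 53.6 CPM of ITGA2. In cluster 23 LAMA3 was 25.1, 119 and 4.45 CPM in E18, E20 and E24, the embryos with at least 10 cells there, so its level rested largely on E20. Cluster 23 was not highest in every embryo. ITGA5 in E20 was 443 CPM in cluster 23 and 658 CPM in cluster 13. In E24 LAMB1, LAMC1 and LAMA3 were 308, 297 and 15.2 CPM in cluster 18, against 196, 233 and 4.45 CPM in cluster 23.

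Clusters 13 and 19 of EVT had the highest pooled LAMA4 and ITGB2 of the EVT clusters. Cluster 19 (84 cells, all of E20) had 280 CPM of LAMA4, 836.6 CPM of ITGB2 and 99.5 CPM of ITGA3. Cluster 13 (107 cells) had 161.8 CPM of LAMA4, 569 CPM of ITGB2, 87.6 CPM of ITGA3 and 230.2 CPM of ITGAV. ITGAV was close to that in cluster 23, at 223.8 CPM. It was higher in cluster 23 in E18 and E24, at 321 and 365 CPM against 159 and 195 CPM in cluster 13. In E20 it was lower, at 145 against 316 CPM. Cluster 23 had 67.7 CPM of LAMA4 and 328 CPM of ITGB2. By embryo, ITGB2 was 256, 1115 and 563 CPM in cluster 13 of E18, E20 and E24. In cluster 23 it was 277, 279 and 393 CPM, so cluster 13 was lower in E18. The endothelium marker sums of clusters 13, 19 and 23 were 1522, 1496 and 2072 CPM, of which PECAM1 gave 1352, 1308 and 1882 CPM. In embryos with both clusters, LAMA4 was higher in cluster 13 than in 23, at 105, 283 and 199 CPM in cluster 13 and 67.2, 37.1 and 136 CPM in cluster 23 of E18, E20 and E24. ITGA6 ran the other way, at 20.8, 2.61 and 28.99 CPM in cluster 13 and 64.5, 143 and 62.2 CPM in cluster 23. Mesenchyme marker sums of clusters 13, 19 and 23 were 1234, 1939 and 2003 CPM, against 1487, 408 and 1280 CPM in clusters 0, 12 and 14 of CTB.

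**Figure D4:**
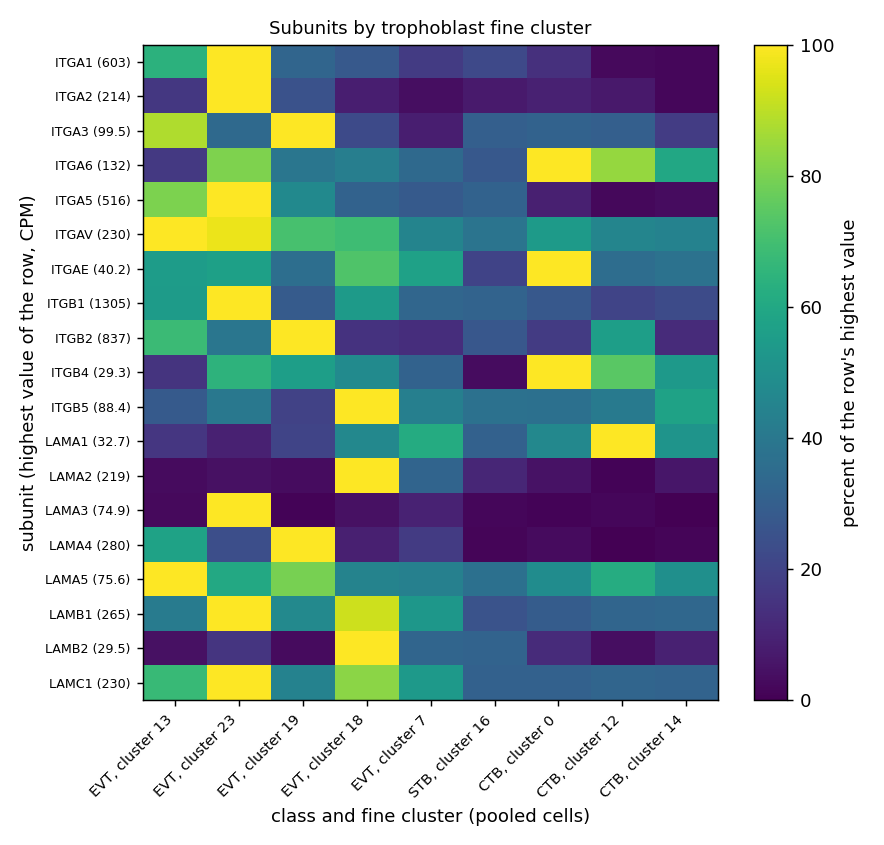
Pooled level of each subunit in the trophoblast fine clusters, as a percent of that subunit's highest cluster (colour; the highest value in CPM stands beside each name), for subunits that reach 20 CPM. EVT cluster 23 is highest for ITGA1, ITGA2, ITGA5, ITGB1, LAMA3, LAMB1 and LAMC1, EVT cluster 18 for LAMA2 and LAMB2, and CTB cluster 0 for ITGA6 and ITGB4.

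The CTB clusters differed by embryo. Cluster 12 (138 cells) had 137 cells from E20, and cluster 14 (125 cells) had 112 from E23, so cluster and embryo cannot be told apart there. Cluster 0 (257 cells of 8 embryos) held most ITGA6 and ITGB4, at 132 and 29.3 CPM, against 111 and 21.9 CPM in cluster 12 and 79.4 and 15.9 CPM in cluster 14. Cluster 12 held 469.9 CPM of ITGB2, against 147 CPM in cluster 0 and 103 CPM in cluster 14, and within E20 they held 469 CPM (cluster 12), 134 CPM (cluster 0) and 327 CPM (cluster 14). ITGA5 was 45.04 CPM in cluster 0, 11.2 CPM in cluster 12 and 17.5 CPM in cluster 14. STB formed a single cluster of 100 cells, with 0.965 CPM of ITGB4 and 13.05 CPM of ITGA8, the highest ITGA8 of the trophoblast clusters.

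Extraembryonic Mesoderm against EXMC compares the embryo's supporting mesodermal tissues. Of the 31 subunits 4 rose and 2 fell in Extraembryonic Mesoderm, and 4.84% of all genes were called, 2.56% higher and 2.28% lower in Extraembryonic Mesoderm. The laminin alpha chain differed by class. LAMA2 ranged from 40.7 CPM over a median of 105 CPM to 159.7 CPM in Extraembryonic Mesoderm, and from 119 CPM over a median of 518 CPM to 793 CPM in EXMC. Only the EXMC sum of E16-2 lay within the lower range, and the log2 fold change was -2.56 ± 0.54 (edgeR adjusted p = 0.000777). LAMA1, the alpha chain of early embryonic basement membranes, ranged from 28.3 CPM over a median of 65.5 CPM to 122 CPM in Extraembryonic Mesoderm, and from 2.25 CPM over a median of 14.3 CPM to 41.2 CPM in EXMC. It was higher in Extraembryonic Mesoderm in 6 of 6 embryos (log2 fold change 2.09 ± 0.50, edgeR adjusted p = 0.00271).

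LAMA4 averaged 22.8 ± 10.2 CPM in Extraembryonic Mesoderm and 5.79 ± 2.07 CPM in EXMC, with no overlap (log2 fold change 1.69 ± 0.54, edgeR adjusted p = 0.0268). Its call was lost without E18 or E23 (adjusted p = 0.0693 and 0.145). The beta and gamma chains did not pass. LAMB1 averaged 262 ± 55.2 CPM in Extraembryonic Mesoderm and 396 ± 165 CPM in EXMC and was lower in 6 of 6 embryos (log2 fold change -0.76 ± 0.28, edgeR adjusted p = 0.0624), and LAMC1 had a log2 fold change of -0.37 ± 0.26 (edgeR adjusted p = 0.372).

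Among the receptors, ITGA8 averaged 64.8 ± 30.9 CPM in Extraembryonic Mesoderm and 11.7 ± 11.2 CPM in EXMC, and rose in 6 of 6 embryos (log2 fold change 2.37 ± 0.66, edgeR adjusted p = 0.0102; 0.0508 without E18). Its ligand NPNT, nephronectin, rose too, to a mean of 154 CPM in Extraembryonic Mesoderm, against 20.9 CPM in EXMC (log2 fold change 2.30 ± 0.74, edgeR adjusted p = 0.0269). ITGA6 averaged 29.2 ± 21.6 CPM in Extraembryonic Mesoderm and 9.98 ± 6.00 CPM in EXMC (log2 fold change 1.40 ± 0.32, edgeR adjusted p = 0.002), and with sums per library it was 0.97 ± 0.39 and not called (edgeR adjusted p = 0.0804). ITGB1 averaged 539.6 ± 65.0 CPM in Extraembryonic Mesoderm and 939.9 ± 294 CPM in EXMC, lower in 5 of 6 embryos, with E23 the exception (log2 fold change -0.73 ± 0.18, edgeR adjusted p = 0.00304; 0.0578 with at least 5 cells per sum). ITGA1 did not overlap between the classes, at 29.4 to 135 CPM in Extraembryonic Mesoderm and 176 to 265 CPM in EXMC, yet missed the threshold (log2 fold change -1.27 ± 0.46, edgeR adjusted p = 0.0541). ITGA5, lower in 6 of 6 embryos, and LAMA5, higher in 5 of 6, did not pass either, at -0.74 ± 0.35 and 0.66 ± 0.25 (edgeR adjusted p = 0.156 and 0.0745).

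**Figure D5:**
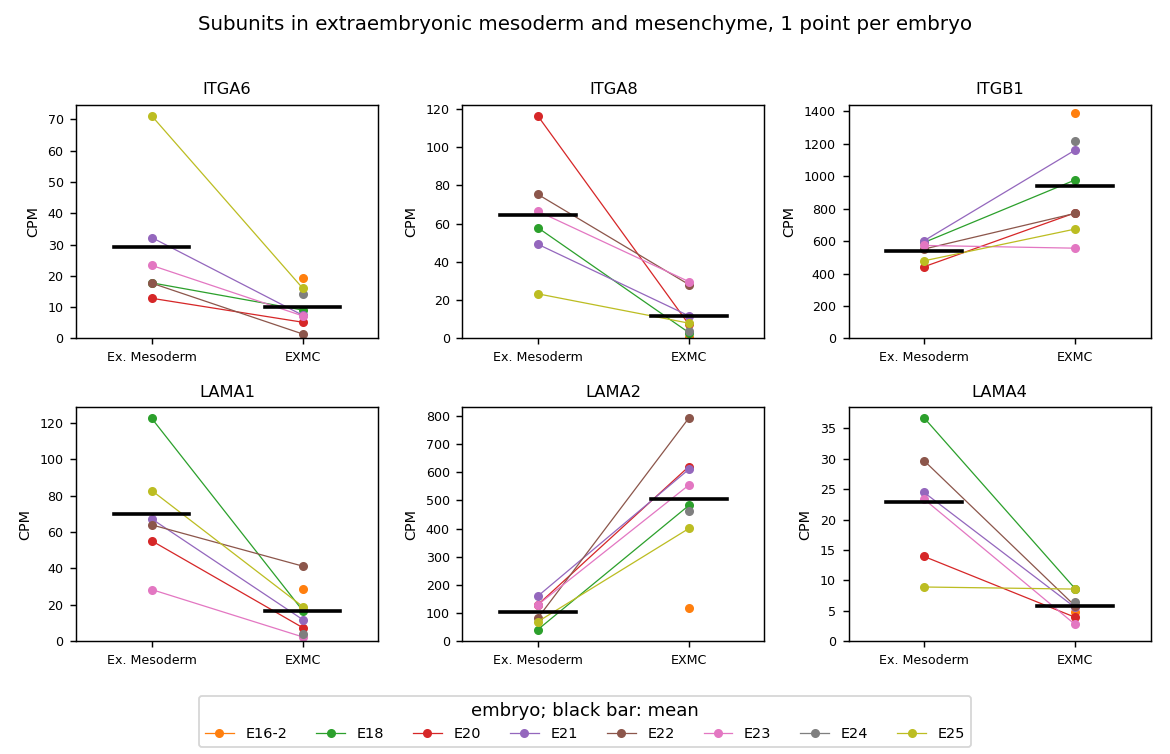
Level (CPM) of the 6 called subunits in Extraembryonic Mesoderm and EXMC, with 1 point per embryo; thin lines join sums of the same embryo and black bars are class means. LAMA1, LAMA4, ITGA6 and ITGA8 were higher in Extraembryonic Mesoderm in 6 of 6 embryos, LAMA2 lower in 6 of 6 and ITGB1 lower in 5 of 6.

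Their matrix partners differed in part. Of the 26 basement membrane partners 2 rose and 3 fell in Extraembryonic Mesoderm, with NID1, COL4A1 and COL4A2 lower at -1.97 ± 0.35, -1.55 ± 0.35 and -1.18 ± 0.34, and SMOC1 higher at 1.94 ± 0.61. Of 23 other ligands 4 rose and 2 fell, with EDIL3 and POSTN, ligands of ITGAV receptors, at 3.74 ± 0.50 and 2.33 ± 0.51, and THBS1 at -1.87 ± 0.58. None of the 25 adaptors rose and 1 fell, ACTN4 at -0.52 ± 0.18.

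Trophoblast as a whole, the mean of EVT, STB and CTB, was set against the mean of Extraembryonic Mesoderm and EXMC. In trophoblast 8 subunits rose and 14 fell, so 22 of 31, and 32.9% of all genes were called, 13.6% higher and 19.3% lower in trophoblast. ITGB2 averaged 238 CPM over the trophoblast classes and 15.1 CPM over the mesenchymal classes. The lowest trophoblast sum, 59.6 CPM, stood above the highest mesenchymal sum, 41.04 CPM (log2 fold change 3.84 ± 0.28, edgeR adjusted p = 2.53e-12). ITGA3 averaged 34.8 CPM in trophoblast and 3.65 CPM in the mesenchymal classes, also without overlap (log2 fold change 3.28 ± 0.33, edgeR adjusted p = 4.01e-09).

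ITGB6 had a log2 fold change of 3.78 ± 0.82 (edgeR adjusted p = 0.00105), and ITGA6 one of 1.96 ± 0.22 (edgeR adjusted p = 3.69e-08). ITGA2, ITGB4 and LAMA5 rose by 1.41 ± 0.45, 1.17 ± 0.39 and 0.59 ± 0.17, and each call was lost without at least 1 embryo. ITGA2 was lost without E18, E22, E24 or E25, ITGB4 without E16-2, E20, E23 or E25, and LAMA5 without E18, E20 or E23. The ITGB4 difference holds for the mean of the trophoblast classes and not for STB, which averaged 1.08 CPM, against 4.10 CPM in Extraembryonic Mesoderm and 1.93 CPM in EXMC.

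The mesenchymal classes had more of most laminin chains. In trophoblast LAMC3, LAMA2, LAMB2, LAMB1, LAMA1 and LAMC1 fell, with log2 fold changes of -3.69 ± 0.67, -3.08 ± 0.39, -2.14 ± 0.29, -1.56 ± 0.19, -1.46 ± 0.36 and -1.21 ± 0.18. All but LAMA1 were lower in 8 of 8 embryos. ITGA8 fell by 3.58 ± 0.49, ITGB5, a partner of ITGAV, by 1.12 ± 0.21, and ITGB1 by 0.57 ± 0.12 (edgeR adjusted p = 1.56e-06, 0.000178 and 0.000611). The ITGB1 difference holds for the mean of the trophoblast classes. In EVT ITGB1 averaged 803 CPM, above the 540 CPM of Extraembryonic Mesoderm and below the 940 CPM of EXMC. Its call was lost with at least 5 cells per sum (edgeR adjusted p = 0.107). ITGA4, ITGA9, ITGA11, ITGA2B and ITGAE were the remaining chains that fell, and all but ITGA11 lost their call without E18 and at least 1 other embryo, with adjusted p up to 0.25. ITGAE was lower in trophoblast in 5 of 8 embryos. ITGA1, ITGA5 and ITGAV, at log2 fold changes of -0.27 ± 0.30, -0.16 ± 0.24 and 0.23 ± 0.20, did not pass. Of the basement membrane partners 5 of 26 rose and 12 fell in trophoblast. COL17A1, a hemidesmosome collagen, was higher at 4.26 ± 0.59, while COL4A5, a collagen IV chain, NID2 and FREM1 were lower at -4.05 ± 0.52, -2.99 ± 0.29 and -2.87 ± 0.38. LAMA3, LAMA4 and ITGB8, at -0.83 ± 0.81, 0.56 ± 0.36 and 2.09 ± 0.76, did not pass either (edgeR adjusted p = 0.563, 0.337 and 0.0573).

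The embryonic classes had too few sums for contrasts of their own and are described by level. Endoderm had the highest class mean of ITGA6, 327 and 141 CPM in E18 and E21, and EPI followed with 120.3, 187 and 139 CPM in E18, E21 and E25. These ranges overlapped with each other and with CTB. Endoderm also led in LAMA1, at 138 and 89.7 CPM in E18 and E21, and in LAMB1, at 596 and 239 CPM. Its LAMC1 was 257 and 77.0 CPM and its LAMA5 59.8 and 54.0 CPM, so the chains of an early basement membrane were all read there, with the higher value in E18. EPI held little laminin in E18 and E21, with LAMB1 at 19.4 and 26.95 CPM and LAMC1 at 25.2 and 14.6 CPM, and more in E25, at 89.0 and 90.2 CPM. Sums of the 9 mesenchyme markers ran from 840 CPM over a median of 1757 CPM to 7953 CPM in EPI. In Endoderm they were 1020 and 6281 CPM. Their part in the laminin levels of these classes was not tested.

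Non-neural ectoderm had ITGA6 at 104 and 97.7 CPM in E22 and E23, inside the CTB range, and ITGB6 at 1.98 and 9.25 CPM. Mesoderm had ITGA8 at 34.9, 22.9 and 26.8 CPM in E18, E21 and E22, of which 22.9 CPM lay just below the lowest sum of Extraembryonic Mesoderm, 23.3 CPM. ITGA9, a tenascin receptor chain, was highest in Mesoderm at 11.4 ± 4.57 CPM (SD, n = 3). PS and derivative had no subunit at its highest class mean; ITGA5 there was 90.0 and 64.7 CPM in E16-1 and E16-2, above all 3 EPI sums, which were 3.85 to 47.6 CPM. In the single Neural ectoderm sum, from E22, ITGA4, a receptor chain for VCAM1 and fibronectin, was 9.08 CPM, and ITGAV and LAMB1 were 15.8 and 56.1 CPM.

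A slope over embryonic day was fitted within EVT, CTB, Extraembryonic Mesoderm and EXMC. With edgeR none of the 27, 23, 28 and 29 subunits tested in these classes passed, with the smallest adjusted p between 0.741 and 0.778. At an unadjusted p under 0.05 there were 2, 5, 3 and 4, and DESeq2 also called none. Of all genes 0% were called in EVT, CTB and EXMC, and 0.00807% in Extraembryonic Mesoderm. LAMB2 had a positive slope in all 4 classes, at 0.46 ± 0.17, 0.46 ± 0.19, 0.33 ± 0.11 and 0.24 ± 0.08 log2 per day (SE), with edgeR adjusted p of 0.811, 0.83, 0.766 and 0.741. Its highest value was in E25 in each of them, at 25.4 CPM in EVT, 6.799 CPM in CTB, 73.9 CPM in Extraembryonic Mesoderm and 55.0 CPM in EXMC. E25 is 1 embryo, so this cannot be told apart from a trait of that embryo.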

How the data were processed

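RNA libraries of 3682 single cells were deposited by the authors as raw counts per gene, with no normalization, beside a table of classes, fine clusters, embryos and days. Per the submitters' processing notes the tools were cutadapt 1.15, STAR 2.6.0a and HTSeq 0.10.0. Not given in the sources used here were the genome build, the treatment of doublets and the unit counted, reads or molecules. No doublet caller was run. In 42 libraries (3533 cells) the labels name 1 day, and these entered all results. The other 2 (149 cells) were left out, except in a named alternative.

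Counts were summed per embryo and class. Sums of at least 10 cells were tested in edgeR 4.0.16 (R 4.3.3; filterByExpr, TMM, quasi-likelihood test), with all classes of at least 2 sums in 1 fit and the embryo as a block, since sums of an embryo share an animal. P-values were adjusted by Benjamini-Hochberg over all genes and 5 class contrasts, or over all genes and 4 day slopes. SE is the absolute log2 fold change over the root of F. CPM and figures used pandas 2.3.3 and matplotlib 3.10.9. The fits were tested on simulated data. In EVT minus CTB 7 of 100 changes of 2-fold and 47 of 100 of 4-fold were called, with 3 false calls. Of slopes of day in CTB, 14 of 100 at 0.25 and 64 of 100 at 0.5 log2 per day were called. A subunit that did not pass can therefore still differ.

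Members and lists were chosen with earlier results of these data known. In each contrast the called subunits of at least 10 CPM on the higher side are named, up to 12, and the epithelial, fibronectin, collagen and ITGAV-family chains by role, called or not. ITGA7, ITGA8 in trophoblast, LAMC3, the low chains of the trophoblast contrast, and all chains of the embryonic classes were chosen after their values were seen. Some items are not reported here, and counts of subunits still include them. Of each list up to 4 genes are named. Alternatives were another scaling, DESeq2 1.42.0, other filters and cell minimums, sums per library, no block, fits of the compared classes only, and leaving out embryos or EVT clusters 7 and 18.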

Additional observations from a re-analysis of the deposited data

Results flagged for a closer look

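Of 88 sets of embryo values (a named subunit in EVT, STB, CTB, Extraembryonic Mesoderm or EXMC), 15 held an embryo far from the others by Dixon's criterion, and chance gives about 1 in 20. No explanation of these values was tested.

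E25 stood apart in 6 of them. It had 336 CPM of ITGA1, 10.2 CPM of LAMA4 and 39.4 CPM of LAMB2 in STB, 82.8 CPM of ITGAE in CTB, and 71.1 CPM of ITGA6 and 73.9 CPM of LAMB2 in Extraembryonic Mesoderm, each the highest of its class. E20 was highest in ITGB2 both in STB, at 387 CPM, and in CTB, at 455 CPM, and in LAMA3 in EVT, at 25.6 CPM. E16-2 was highest in ITGB1 in STB, at 781 CPM, and in ITGAV and ITGB5 in EXMC, at 302 and 181 CPM. E24 was highest in ITGA1 and ITGA5 in EVT, at 528 and 645 CPM. E21 was highest in LAMB1 in EVT, at 370.2 CPM.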

How the results depend on the processing

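For the 52 called differences named by the rule above, 1059 alternative values were computed. Of these values 969 kept direction and call, 90 kept the direction but missed the threshold, and 0 reversed. The other called chains, LAMC3 among them, are outside this tally. Without clusters 7 and 18 the log2 fold change of LAMC3 in EVT minus CTB changed sign, to -0.10 ± 1.06. The number of called subunits stayed within 1.5 times its first value except as follows. EVT minus STB, 11 at first, gave 5 with no replicate block for the embryo and 6 with only its classes in the fit, and leaving out single embryos gave 5 to 11. STB minus CTB, 9 at first, gave 5 with at least 20 cells per sum. Extraembryonic Mesoderm minus EXMC, 6 at first, gave 10 with sums per library and 10 with only its classes in the fit. Day slopes, 0 at first, gave 2 in EVT, 3 in CTB and 2 in EXMC with sums per library, which count libraries of 1 embryo as independent, and 3 in EXMC with the library code as a term too. Of all genes 4.86%, 3.33%, 2.35% and 2.62% were called in these fits. The cause of these moves was not tested. Leaving out single embryos gave 12 to 14 for EVT minus CTB, 6 to 9 for STB minus CTB, 4 to 7 for Extraembryonic Mesoderm minus EXMC and 16 to 22 for trophoblast. With sums per library too few STB cells were left for STB or trophoblast contrasts. EVT without cluster 7, and without 7 and 18, were added after seeing the data.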
